A study of Homo sapiens with 9 samples.

Results

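The ERBB family was examined through 10 genes: the 4 receptor genes EGFR, ERBB2, ERBB3 and ERBB4, and 6 genes for ligands of these receptors, AREG, EREG, TGFA, HBEGF, BTC and EPGN. The genes were taken by name, as the rows of the count table whose Ensembl identifier carries one of these symbols in GENCODE release 29. They are 10 of the 60675 rows of the table, and 8 of them passed the filter on low counts that left 13264 genes for testing. ERBB4 and EPGN did not pass it and are described by their counts.

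Messenger RNA was sequenced from HCC827, an established cell line from a human lung adenocarcinoma whose EGFR gene holds an activating mutation. All cells stably expressed a short hairpin RNA, and the labels name no drug or other treatment. The control group expressed the NS hairpin, and the other groups expressed G1 or G7, hairpins against CBX5, the gene for the heterochromatin protein HP1 alpha. Each group had 3 libraries, described by the submitters as biological replicates. The labels do not say whether the replicates of a group came from separate transductions, so p-values measure the spread between these libraries. The G1 and G7 comparisons use the same 3 control libraries and are not independent of each other.

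ERBB receptors are tyrosine kinases of the cell surface that signal as pairs. EGFR binds AREG, EREG, TGFA, HBEGF, BTC, EPGN and EGF, ERBB3 and ERBB4 bind neuregulins, and ERBB2 has no known ligand and acts as a partner of the other receptors. The ligands are made as membrane proteins and are released by proteases, and the paired receptors pass the signal through adaptors to the RAS-ERK and PI3K-AKT pathways. In lung adenocarcinoma, EGFR with an activating mutation signals without ligand and is the target of kinase inhibitors.

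Libraries held 12701561 to 22372353 counts. CBX5 stood at 361 to 377 CPM (counts scaled to a common library size, with TMM factors) in the control libraries, 142 to 143 CPM with G1 and 201 to 204 CPM with G7. All 7 epithelial markers, such as EPCAM and KRT8, were above 1 CPM, and their summed level was 9810 to 10808 CPM in control, 13972 to 14179 CPM with G1 and 11629 to 12349 CPM with G7. Of 6 markers of the lung lineage none reached a group mean of 1 CPM, and NKX2-1 and NAPSA were listed at 0 in every library. COL1A1 was the 1 of 6 fibroblast markers above 1 CPM, CD14 the 1 of 5 immune markers, and PECAM1 and CDH5 the 2 of 4 endothelial markers. Summed levels of these lists in control, G1 and G7 were 14.7 to 14.8, 13.3 to 15.9 and 13.2 to 14.7 CPM for fibroblast markers, 6.04 to 7.32, 2.89 to 3.67 and 5.73 to 7.14 CPM for immune markers, and 84.2 to 92.8, 71.2 to 76.9 and 85.8 to 92.5 CPM for endothelial markers. LUM, CD68 and MS4A1 were listed at 0 in every library. So were AP2M1 and STUB1, genes that most cells use, and exons of other genes cover 85.8% of CD68, so a gene listed at 0 is not read as absent here. The part of these markers in the results was not tested. G7 replicate 3 stood apart from its group, since its counts differed from those of the other two G7 libraries by a chi-square of 24.7 and 19.5 relative to the degrees of freedom, against 1.51 between those libraries. The same measure was 2.83 to 5.28 between control libraries and 3.36 to 9.57 between G1 libraries. G7 replicate 3 also had the highest share of mitochondrially encoded counts, 19.8% against 13.4% to 17.7% in the other 8 libraries, and results that change without it are marked.

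With G1, HBEGF fell from a mean of 19.97 CPM to 6.17 CPM, and ERBB2, ERBB3 and EGFR fell by smaller amounts, while EREG rose. With G7, ERBB3 and BTC fell and AREG and EREG rose, and EGFR, ERBB2, TGFA and HBEGF did not pass the test. Several of these calls depended on the processing. Those of EGFR and EREG with G1 ended in 6 and 10 of 16 alternatives, which are listed with the processing. Those of BTC, AREG and EREG with G7 ended in 9, 14 and 5. In G1 minus control, 1 of the 8 tested members was called higher and 4 were called lower, in a comparison where 59.1% of all tested genes were called, 30.4% higher and 28.7% lower. In G7 minus control, 2 were called higher and 2 lower, against 22.7% of all genes called, 13.1% higher and 9.64% lower. In G1 minus G7, where 44.9% of all genes were called, 23.3% higher and 21.6% lower, 4 members were called lower and edgeR called 0 higher, with 1 member higher at an unadjusted p under 0.05 and 0 called by DESeq2. The median log2 change of the 8 members was -0.11, 0.03 and -0.15 in the 3 comparisons, beside -0.01, 0.01 and -0.01 over all tested genes.

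**Figure D1:**
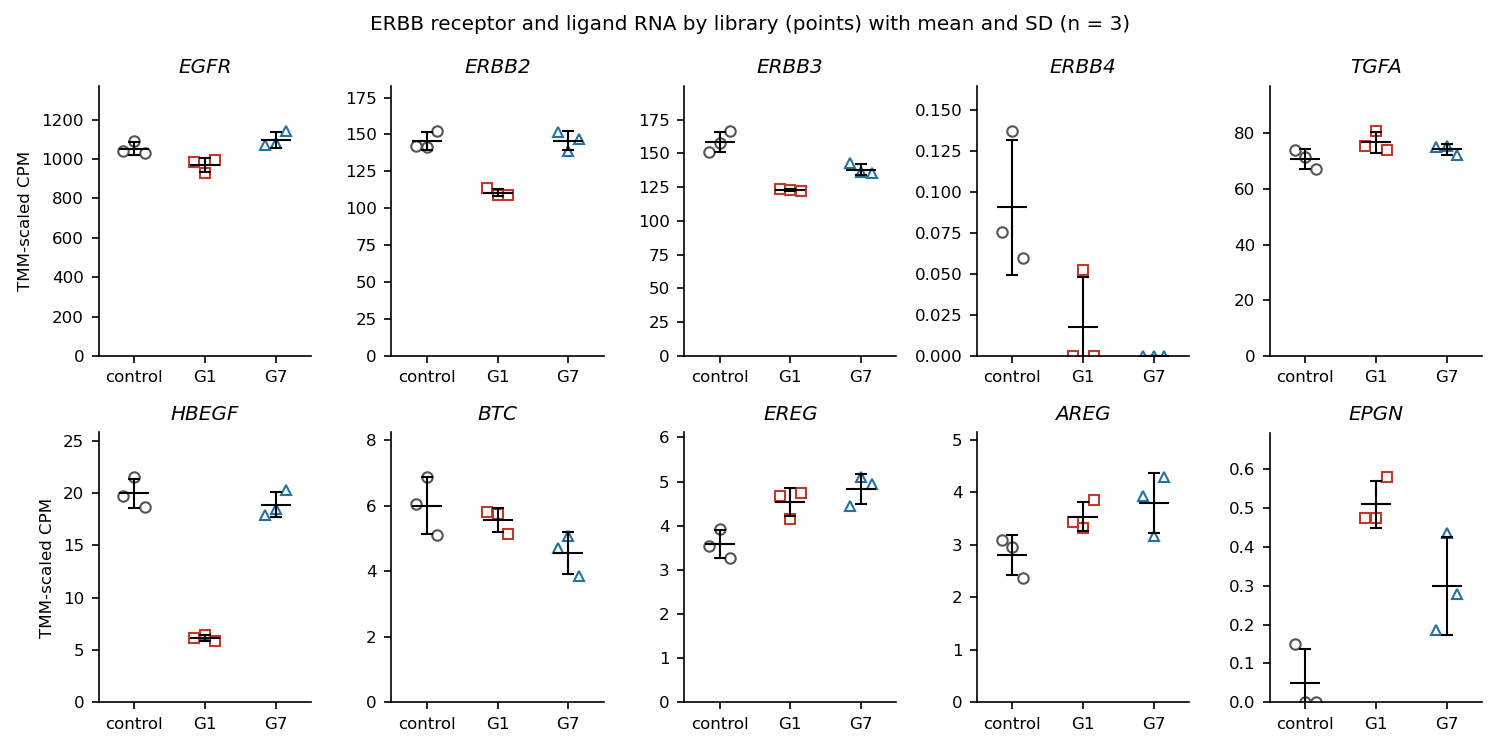
Level of each of the 10 members by library, in CPM on a linear axis, with 1 point per library, a line at the mean of each group and whiskers of 1 SD over 3 libraries, which end at 0 where they would go below it. HBEGF stands at 5.90 to 6.43 CPM in the G1 libraries and at 17.9 CPM or more in the other 6 libraries.

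EGFR encodes the receptor that is mutated in these cells. Its gene (ENSG00000146648) lies on the plus strand of chromosome 7, from 55019021 to 55211628 in GRCh38. EGFR stood at 1040.0, 1090.3 and 1031 CPM in the 3 control libraries, at 986, 928 and 995 CPM with G1 and at 1069.9, 1081 and 1143 CPM with G7. Every G1 library was below every control and every G7 library, while G7 and control overlapped. EGFR fell with G1 by 0.12 on the log2 scale (SE 0.05, adjusted p = 0.0311 by the quasi-likelihood test of edgeR, adjusted by Benjamini and Hochberg's method, the source of all adjusted p-values here unless another is named). In G7 minus control the log2 difference was 0.06 (95% interval -0.04 to 0.16, adjusted p = 0.387). The level with G1 was below that with G7 by a log2 difference of -0.18 (SE 0.05, adjusted p = 0.00366). The G1 call of EGFR ended when control replicate 1, control replicate 2, G1 replicate 1 or G1 replicate 2 was left out, without the filter on low counts and with DESeq2, with adjusted p-values over all 16 alternatives from 0.00075 to 0.166. RNA was measured from whole cultures, so fewer cells with an RNA and less of it per cell cannot be told apart, for EGFR as for the genes that follow.

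ERBB2, the receptor without a known ligand, is encoded on the plus strand of chromosome 17 (ENSG00000141736, 39687914 to 39730426). Control libraries held 142, 141 and 152 CPM of ERBB2, G1 libraries 114, 109 and 109 CPM, and G7 libraries 152, 139 and 147 CPM. All G1 libraries were below all others, and G7 and control overlapped. The log2 change with G1 was -0.39 (SE 0.05, adjusted p = 9.44e-07) and the log2 difference of G1 from G7 was -0.40 (SE 0.05, adjusted p = 1.55e-06). In G7 minus control it was 0.0046 (95% interval -0.09 to 0.10, adjusted p = 0.96). Exons of MIEN1 and PGAP3 on the other strand cover 7.41% of the merged exons of ERBB2, against 1.49% for EGFR, 0.343% for ERBB3 and 0 for the 6 ligand genes, and whether the counting used strand is not given in the sources used here.

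ERBB3 encodes a receptor with little kinase activity of its own that recruits PI3K when paired with EGFR or ERBB2. It lies on the plus strand of chromosome 12 (ENSG00000065361, 56076799 to 56103505). Its values were 151, 158 and 167 CPM in control, 123, 123 and 122 CPM with G1 and 142, 136 and 135 CPM with G7. The 3 groups did not overlap, with control highest and G1 lowest. The log2 change of ERBB3 was -0.37 with G1 (SE 0.04, adjusted p = 1.17e-06) and -0.20 with G7 (SE 0.04, adjusted p = 0.00302), and the log2 difference of G1 from G7 was -0.17 (SE 0.04, adjusted p = 0.00489). All 3 calls of ERBB3 held in the 16 alternatives.

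ERBB4, a neuregulin receptor on the minus strand of chromosome 2 (ENSG00000178568, 211375717 to 212538841), had 1, 2 and 1 counts in the control libraries, 0, 1 and 0 with G1 and none with G7. A count of 0 allows up to 3 counts, which is 0.139 to 0.227 CPM in these libraries for counting error only, so differences of ERBB4 were not detectable at this depth.

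**Figure D2:**
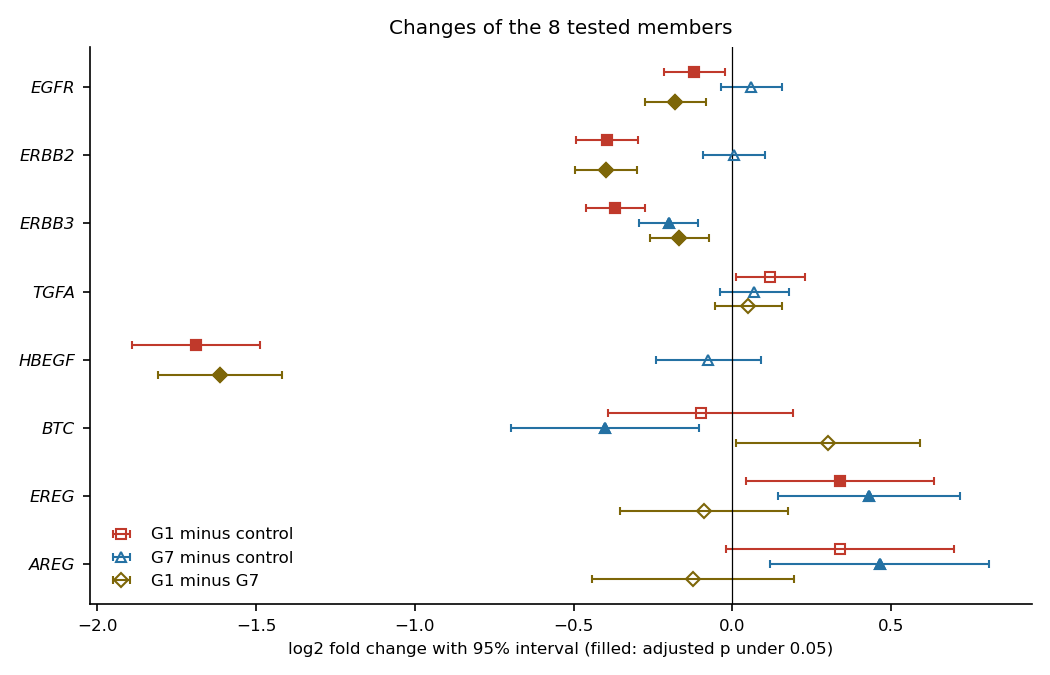
Log2 fold change of the 8 tested members for G1 against control, G7 against control and G1 against G7, with whiskers for the 95% interval of the edgeR fit and filled symbols for an adjusted p under 0.05. HBEGF is at -1.69 in G1 minus control and at -0.08 in G7 minus control, and the other members lie between -0.40 and 0.46.

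HBEGF, heparin-binding EGF-like growth factor, binds EGFR and ERBB4. Its gene is on the minus strand of chromosome 5 (ENSG00000113070, 140332843 to 140346631). HBEGF stood at 19.7, 21.5 and 18.7 CPM in control, at 6.16, 6.43 and 5.90 CPM with G1 and at 17.9, 18.5 and 20.3 CPM with G7. The G1 libraries were far below the rest, and the G7 and control libraries overlapped. In G1 minus control the log2 change was -1.69 (SE 0.10, adjusted p = 4.13e-11, fold 0.310, 95% interval of the log2 change -1.89 to -1.49). Of the 13264 tested genes, 132 fell further. In G7 minus control it was -0.08 (95% interval -0.24 to 0.09, adjusted p = 0.54). The direct comparison of G1 with G7 gave -1.61 (SE 0.09, adjusted p = 2e-10), with 66 of the tested genes lower still. Neither call of HBEGF changed in any of the 16 alternatives, and both stayed between -1.78 and -1.56. CD14, 1 of 5 immune markers, was also lower with G1, at 2.68 CPM against 6.04 CPM in control and 6.18 CPM with G7, and its part in this result was not tested. The other immune markers did not fall with it. PTPRC stood at 0.51, 0.54 and 0.37 CPM and CD3E at 0.02, 0.04 and 0.07 CPM in control, G1 and G7. CD68 and MS4A1 were listed at 0.

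The promoter of HBEGF is shown because it changed most among the 8 tested members, and those of AREG, EREG and EPGN because these neighbouring genes of the ligand cluster on chromosome 4 had their libraries with either hairpin above all control libraries. The share of all genes with such a separation is not given here. Of all tested genes, 30.4% were called higher with G1 and 13.1% with G7. BTC, the remaining gene of that cluster, was not higher than control with either hairpin. The sequences are the 250 bases before the start in RefSeq (GRCh38.p14), which held entries for 9 of the 10 members, all but ERBB3. They are written 5′ to 3′ on the strand of the gene, from chr5:140346604-140346853 (minus strand) for HBEGF, chr4:74444886-74445135 (plus) for AREG, chr4:74364895-74365144 (plus) for EREG and chr4:74308220-74308469 (plus) for EPGN. Capitals mark matches on either strand to 6 motifs, which are the TATA box with the letters TATAAA, the GC box with the letters GGGCGG, the cAMP response element with TGACGTCA, the AP-1 motif with TGANTCA, the E box with CACGTG and the ETS motif with CCGGAAGT.
HBEGF: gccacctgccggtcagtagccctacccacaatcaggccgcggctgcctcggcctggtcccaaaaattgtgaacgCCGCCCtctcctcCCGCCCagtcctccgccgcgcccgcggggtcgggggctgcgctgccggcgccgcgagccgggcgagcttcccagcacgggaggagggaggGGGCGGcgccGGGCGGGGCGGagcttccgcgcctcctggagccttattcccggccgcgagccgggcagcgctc
AREG: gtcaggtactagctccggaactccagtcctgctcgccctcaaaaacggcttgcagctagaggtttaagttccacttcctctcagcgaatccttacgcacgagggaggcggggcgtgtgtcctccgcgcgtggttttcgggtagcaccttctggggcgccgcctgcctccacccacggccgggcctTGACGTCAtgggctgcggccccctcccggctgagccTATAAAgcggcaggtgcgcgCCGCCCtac
EREG: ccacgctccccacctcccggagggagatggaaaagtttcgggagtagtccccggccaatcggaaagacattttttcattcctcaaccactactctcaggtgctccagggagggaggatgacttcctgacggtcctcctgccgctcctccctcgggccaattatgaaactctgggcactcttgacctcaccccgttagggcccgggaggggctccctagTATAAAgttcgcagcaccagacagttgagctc
EPGN: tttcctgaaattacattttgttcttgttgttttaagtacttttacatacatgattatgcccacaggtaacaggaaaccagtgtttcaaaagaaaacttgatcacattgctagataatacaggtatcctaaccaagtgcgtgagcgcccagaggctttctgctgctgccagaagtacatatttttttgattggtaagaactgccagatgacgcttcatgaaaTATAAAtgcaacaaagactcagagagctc

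HBEGF held 5 matches to the GC box, of which the pair nearest the start share a base, and no match to the other motifs. Its window was 76.4% G or C, against a median of 58% over all promoters in the table. Members that changed little had similar windows. Those before the first starts of TGFA and EGFR were 75.6% and 73.6% G or C and also held the GC box. EGFR also held TATAAA before its second start, at -146 to -141 and at -36 to -31. AREG, EREG and EPGN each held TATAAA, at positions -29 to -24, -32 to -27 and -29 to -24 from the start. AREG also held TGACGTCA at -65 to -58 and a GC box at -9 to -4. BTC, the remaining ligand gene of the cluster, held no exact match to the 6 motifs. Its window held GATAAA near the start, which differs from TATAAA in the first letter only. Of the 35116 promoters of this length in the table, 10.7% held TATAAA, 42.6% the GC box, 1.65% TGACGTCA, 6.57% TGANTCA, 6.34% CACGTG and 3.42% CCGGAAGT. A match describes the letters in the window and is not a measured site.

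AREG, amphiregulin, is an EGFR ligand encoded on the plus strand of chromosome 4 (ENSG00000109321, 74445134 to 74455009). It stood at 3.10, 2.95 and 2.38 CPM in control, 3.44, 3.32 and 3.85 CPM with G1 and 3.94, 3.17 and 4.29 CPM with G7. Every library of both hairpins was above every control library. AREG rose with G7 by 0.46 on the log2 scale (SE 0.16, adjusted p = 0.0497), while the G1 difference of 0.34 (95% interval -0.02 to 0.70, adjusted p = 0.0978) did not pass the test. The log2 difference between G1 and G7 was -0.13 (95% interval -0.44 to 0.19, adjusted p = 0.525). The G7 call of AREG ended in 14 of the 16 alternatives, including each library left out in turn except G7 replicate 2, with adjusted p-values from 0.027 to 0.198.

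EREG, epiregulin, a ligand of EGFR and ERBB4, is the neighbouring gene (ENSG00000124882, plus strand of chromosome 4, 74365143 to 74388751). Its values were 3.55, 3.92 and 3.27 CPM in control, 4.68, 4.16 and 4.75 CPM with G1 and 4.45, 5.09 and 4.94 CPM with G7, with no overlap between control and either hairpin. EREG rose by 0.34 with G1 (SE 0.14, adjusted p = 0.0461) and by 0.43 with G7 (SE 0.14, adjusted p = 0.0294) on the log2 scale. G1 and G7 differed by -0.09 (95% interval -0.35 to 0.17, adjusted p = 0.586). The G1 call ended in 10 alternatives, among them control replicate 1, control replicate 3, G1 replicate 1, G1 replicate 3 or G7 replicate 2 left out and the replicate block (adjusted p over all 16 from 0.0389 to 0.162), and the G7 call in 5, among them control replicate 1, control replicate 3, G7 replicate 2 or G7 replicate 3 left out (0.0317 to 0.124).

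EPGN, epigen, is an EGFR ligand and lies first in the cluster (ENSG00000182585, plus strand of chromosome 4, 74308473 to 74315307). It had 2, 0 and 0 counts in the control libraries, 8, 9 and 9 with G1 and 4, 7 and 6 with G7. Each hairpin's libraries were above all control libraries. With G7 the margin was narrow, 0.185 CPM in G7 replicate 1 against 0.151 CPM in control replicate 1. Both lie below the 0.227 CPM that 3 counts make in that control library. Over the groups, 26 counts with G1 against 2 in control gave a depth-scaled ratio of 11.3, with an exact Poisson interval of 2.82 to 98.002, and 17 counts with G7 gave 6.41 (1.52 to 57.2), intervals that cover counting error only. Without the filter on low counts, edgeR gave EPGN an adjusted p of 0.00012 for G1, 0.0366 for G7 and 0.251 for G1 against G7, over 24096 genes.

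BTC, betacellulin, binds EGFR and ERBB4 and is encoded at the far end of the cluster on the minus strand (ENSG00000174808, chromosome 4, 74744759 to 74794686). It stood at 6.05, 6.87 and 5.12 CPM in control, 5.81, 5.74 and 5.13 CPM with G1 and 4.73, 5.09 and 3.87 CPM with G7. The G7 libraries were below all control and all G1 libraries, by a narrow margin, and G1 and control overlapped. BTC fell with G7 by 0.40 on the log2 scale (SE 0.14, adjusted p = 0.0476). The log2 difference with G1 was -0.10 (95% interval -0.39 to 0.19, adjusted p = 0.556), and that of G1 from G7 was 0.30 (95% interval 0.01 to 0.59, adjusted p = 0.0858). The G7 call of BTC ended in 9 of 16 alternatives (adjusted p from 0.0251 to 0.22), among them control replicate 1, control replicate 2, any G1 library, G7 replicate 1 or G7 replicate 3 left out.

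TGFA, transforming growth factor alpha, is an EGFR ligand encoded on the minus strand of chromosome 2 (ENSG00000163235, 70447280 to 70554193). It stood at 74.0, 71.4 and 67.1 CPM in control, 75.4, 80.9 and 74.0 CPM with G1 and 75.1, 75.5 and 72.1 CPM with G7. The G1 libraries were just above the control libraries, and G7 overlapped with both. The log2 difference of TGFA was 0.12 with G1 (95% interval 0.01 to 0.23, adjusted p = 0.056), 0.07 with G7 (95% interval -0.04 to 0.18, adjusted p = 0.37) and 0.05 between G1 and G7 (95% interval -0.06 to 0.16, adjusted p = 0.441). The G1 difference passed the threshold in 5 alternatives, among them control replicate 1, G1 replicate 3 or G7 replicate 3 left out, with adjusted p-values over all 16 from 0.0302 to 0.595.

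The absolute log2 change of each member was also ranked among all tested genes. With G1, HBEGF exceeded 98.8% of them, ERBB2 61.9%, ERBB3 59%, EREG 55.1%, AREG 54.9%, EGFR 22.4%, TGFA 22.2% and BTC 18.8%. With G7, AREG exceeded 91.6%, EREG 89.9%, BTC 88.3%, ERBB3 65.4%, HBEGF 30.3%, TGFA 27.6%, EGFR 24.3% and ERBB2 2.12%. The standard errors of AREG, EREG and BTC with G7, 0.14 to 0.16, are as large as the median absolute log2 change of all tested genes there, 0.14, so these ranks are imprecise.

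To compare levels between genes, CPM was divided by the length of the merged exons. In control cells EGFR stood at 84.2 ± 2.56 CPM per kilobase (SD, n = 3), rank 299 of the 13264 tested genes. It was followed by ERBB3 at 17.5 ± 0.848, TGFA at 14.3 ± 0.698 and ERBB2 at 14.1 ± 0.594 CPM per kilobase. TGFA and ERBB2 did not differ beyond their spread, and each was below ERBB3 in this scaling. HBEGF came next at 6.62 ± 0.472 CPM per kilobase, then BTC at 2.13 ± 0.311, AREG at 1.71 ± 0.230 and EREG at 0.626 ± 0.0563, with EPGN at 0.0278 and ERBB4 at 0.00698 CPM per kilobase. The spreads of BTC and AREG overlapped, though BTC was above AREG within each control library in this scaling. With G1, HBEGF stood at 2.04 ± 0.0869 CPM per kilobase, close to AREG at 2.15 ± 0.169 and BTC at 1.98 ± 0.132. With the longest transcript as gene length, ERBB2 in control cells was at 29.5, ERBB3 at 26.8 and TGFA at 16.4 CPM per kilobase. AREG was then at 2.27 and BTC at 2.13 CPM per kilobase. The order of ERBB2 against ERBB3 and TGFA, and that of AREG against BTC, thus depends on the length used.

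**Figure D3:**
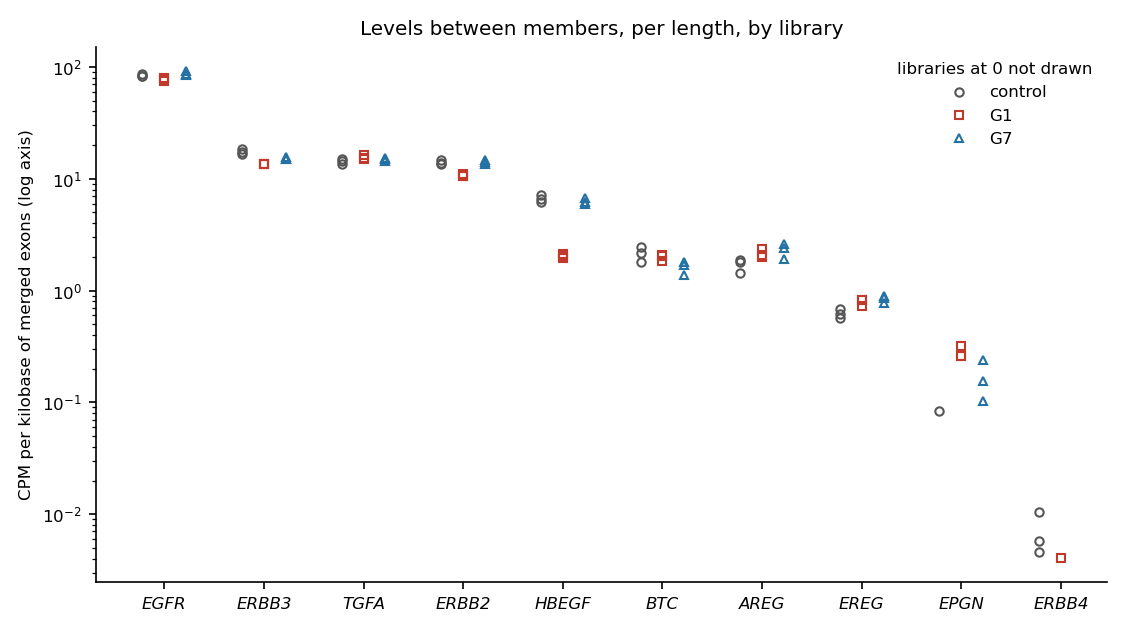
Level of each member per library in CPM per kilobase of merged exons, on a log axis, with the members ordered by their control mean and libraries at 0 not drawn. EGFR lies above every other member in all 9 libraries.

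As a share of the summed CPM per kilobase of the 4 receptors, EGFR made up 71.3% to 73.7% in control, 75.4% to 76.7% with G1 and 73.7% to 75.8% with G7. Among the 6 ligands, TGFA held the largest share in every library, 56.3% ± 1.61 in control, 68.1% ± 1.17 with G1 and 57.2% ± 1.58 with G7 (SD, n = 3). The share of HBEGF was 24.97% to 26.96% in control, 8.82% to 9.09% with G1 and 22.8% to 25.6% with G7. AREG held 6.70%, 9.47% and 8.81% of the ligand sum on average, and EREG 2.47%, 3.50% and 3.23%. The summed level of the 6 ligands was 23.5 to 26.4 CPM per kilobase in control, 22.2 to 23.5 with G1 and 26.0 to 26.2 with G7. EGF, a further EGFR ligand, is not part of this sum or of the shares. It averaged 4.26 CPM per kilobase in control, 2.32 with G1 and 3.72 with G7. These shares are given as a description, with no test.

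**Figure D4:**
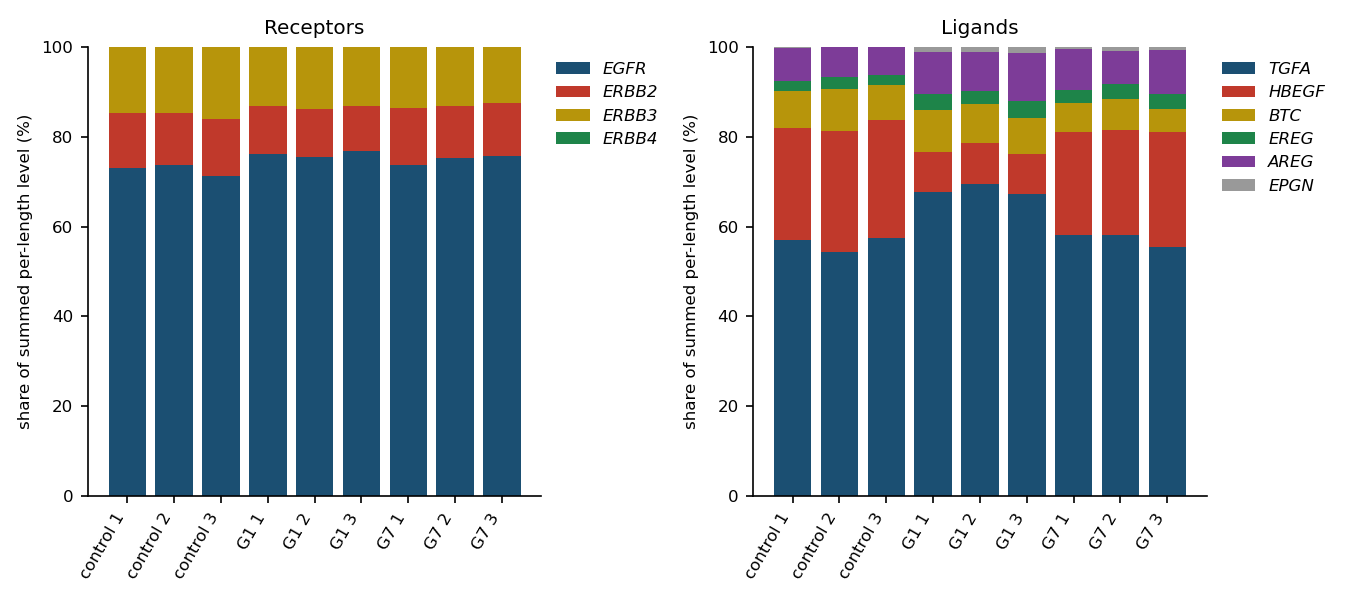
Share of each receptor in the summed level of the 4 receptors, and of each ligand in that of the 6 ligands, in percent of the CPM per kilobase, as stacked bars that start at 0, with 1 bar per library. TGFA and HBEGF together fill most of the ligand bar in control and G7 libraries, and HBEGF is 8.82% to 9.09% of it in G1 libraries.

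Of 5 further ligands of these receptors, EGF and NRG1 were tested, and NRG2, NRG3 and NRG4 were too low. EGF, the first known ligand of EGFR, stood at 28.0, 24.4 and 25.9 CPM in control, 15.8, 14.02 and 12.8 CPM with G1 and 25.2, 22.7 and 20.4 CPM with G7. All G1 libraries were below all others. EGF fell with G1 by 0.88 on the log2 scale (SE 0.09, adjusted p = 2.59e-07), and its G7 difference was -0.19 (adjusted p = 0.12). NRG1, a ligand of ERBB3 and ERBB4, had 3, 6 and 5 counts in control, 18, 24 and 17 with G1 and 8, 10 and 10 with G7. It rose with G1 by 1.85 (SE 0.34, adjusted p = 0.000147), with a G7 difference of 0.58 (adjusted p = 0.374), and was higher with G1 than with G7 by 1.26 (adjusted p = 0.00158).

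The genes that act on ERBB signals were examined as lists. A list of 16 genes held sheddases, which release the ligands, with their helpers, cargo receptors and the inhibitors TIMP1, TIMP2 and TIMP3. Of these, 13 were tested, with 7 higher and 4 lower with G1 and 2 higher and 1 lower with G7. With G1 that is 53.8% higher and 30.8% lower, against 30.4% and 28.7% of all tested genes, and with G7 15.4% and 7.69%, against 13.1% and 9.64%. These counts changed with 1 library left out, to 6 to 7 higher and 1 to 4 lower with G1. The same fits gave 0 to 2 higher and 0 to 1 lower with G7. ADAM9, a metalloprotease, rose with G1 by 0.37 (adjusted p = 3.07e-07), with a G7 difference of 0.09 (adjusted p = 0.117). NRDC, a protease that promotes HBEGF shedding, rose with G1 by 0.38 (adjusted p = 9.04e-07). Its G7 change of 0.14 had an adjusted p of 0.0299, which ended in 7 of 16 alternatives, among them control replicate 2, control replicate 3, G1 replicate 1, G7 replicate 2 or G7 replicate 3 left out (0.0103 to 0.0993). TIMP2, an inhibitor of metalloproteases, rose by 0.22 with G1 (adjusted p = 0.000164), and CNIH1, a cargo receptor for export from the endoplasmic reticulum, fell by 0.20 (adjusted p = 0.00235). The median log2 change of the tested list was 0.13 with G1 and 0.08 with G7.

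Among 19 adaptors and docking proteins, all tested, 7 were higher and 6 lower with G1, and 6 were higher and 2 lower with G7. The shares with G1 were 36.8% higher and 31.6% lower, beside 30.4% and 28.7% of all tested genes, and with G7 31.6% and 10.5%, beside 13.1% and 9.64%. Leaving out 1 library gave 6 to 8 higher and 6 to 7 lower with G1, and 4 to 6 and 1 to 2 with G7. PTPN11, the phosphatase SHP2 that passes receptor signals to RAS, rose by 0.43 with G1 (adjusted p = 1.72e-07) and 0.23 with G7 (adjusted p = 0.00114). PLCG1, a phospholipase bound by active EGFR, rose by 0.51 (adjusted p = 6.18e-07) and 0.34 (adjusted p = 0.000496), and the adaptor CRKL by 0.37 (adjusted p = 1.04e-06) and 0.18 (adjusted p = 0.00804). SOS1, the exchange factor that loads RAS with GTP, fell by 0.48 (adjusted p = 6.45e-07) and 0.23 (adjusted p = 0.00476). The list's medians were -0.04 and 0.06.

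Of 20 negative regulators, 19 were tested, with 6 higher and 8 lower with G1, 4 higher and 3 lower with G7, and medians of -0.04 and 0.04. These are 31.6% and 42.1% of the list with G1, where all tested genes gave 30.4% and 28.7%, and 21.1% and 15.8% with G7, where they gave 13.1% and 9.64%. Without 1 library at a time the list gave 5 to 7 higher and 6 to 8 lower with G1. With G7 it gave 3 to 5 and 3 to 4. UBASH3B, which binds the ubiquitin ligase CBL, rose by 0.50 (adjusted p = 3.73e-09) with G1 and 0.26 (adjusted p = 0.000134) with G7. The phosphatase gene PTPN1 rose by 0.43 (adjusted p = 4.92e-08) and 0.21 (adjusted p = 0.00119). LRIG2 fell by 0.64 (adjusted p = 2.14e-08) and 0.31 (adjusted p = 0.000575). RNF41, a ubiquitin ligase that acts on ERBB3, fell with G1 by 0.56 (adjusted p = 2.58e-08), with a G7 difference of -0.09 (adjusted p = 0.209). LRIG1, which promotes the breakdown of ERBB receptors, was picked after its values were seen. It stood at 5.29, 1.81 and 4.32 CPM in control, G1 and G7 and fell with G1 by 1.54 (adjusted p = 2.2e-06), with a G7 difference of -0.30 (adjusted p = 0.204).

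Downstream, 8 of 14 RAS-ERK genes were higher and 2 lower with G1, and 2 were higher and 1 lower with G7, with medians of 0.18 and 0.03. Higher and lower shares were 57.1% and 14.3% with G1, beside 30.4% and 28.7% of all tested genes, and 14.3% and 7.14% with G7, beside 13.1% and 9.64%. Leaving out 1 library gave 5 to 8 higher and 2 lower with G1, and 1 to 2 higher and 1 lower with G7. HRAS, a RAS gene, rose with G1 by 0.88 (adjusted p = 1.3e-06) and had a G7 difference of 0.01 (adjusted p = 0.97), and the difference of G1 from G7 was 0.86 (adjusted p = 1.7e-06). BRAF, a RAF kinase gene, fell by 0.61 with G1 (adjusted p = 5.89e-08) and 0.28 with G7 (adjusted p = 0.00155). Of 15 PI3K and STAT genes, 14 were tested, with 4 higher and 3 lower with G1, 2 higher and 1 lower with G7, and medians of 0.10 and 0.06. The 28.6% higher and 21.4% lower with G1 compare with 30.4% and 28.7% of all tested genes, and the 14.3% and 7.14% with G7 with 13.1% and 9.64%. Leave-out fits of the PI3K and STAT list gave 3 to 5 higher and 1 to 3 lower with G1. With G7 they gave 2 to 3 higher and 1 lower. AKT1, the kinase gene of that pathway with the smallest p, rose by 0.72 (adjusted p = 2.63e-10) and 0.32 (adjusted p = 9.36e-05).

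Of 20 genes of receptor uptake, sorting and recycling, 19 were tested, with 8 higher and 4 lower with G1, 1 higher and 1 lower with G7, and medians of 0.08 and 0.07. That is 42.1% higher and 21.1% lower with G1, beside 30.4% and 28.7% of all tested genes, and 5.26% each way with G7, beside 13.1% and 9.64%. Leaving out 1 library gave 6 to 9 higher and 2 to 5 lower with G1, and 1 to 3 and 0 to 1 with G7. AP2B1, a subunit of the clathrin adaptor AP-2, rose by 0.53 (adjusted p = 5.67e-09) and 0.16 (adjusted p = 0.0107). CLTC, the clathrin heavy chain, rose with G1 by 0.31 (adjusted p = 1.3e-05), with a G7 difference of 0.10 (adjusted p = 0.141). SPRY2, a feedback inhibitor that also binds CBL, fell with G1 by 0.55 (adjusted p = 2.03e-05), with a G7 difference of -0.04 (adjusted p = 0.755).

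The further genes given here are only some of those behind the small counts of these lists. Apart from PIK3R3, AKT2 and TIMP2 they lie outside the naming rule and were picked after their values were seen, and of these only ERRFI1 was recomputed under the alternatives. With G1 the other lower sheddase genes were ADAM8 (-0.20), ADAM10 (-0.11) and RHBDF2 (-0.27), the other lower RAS-ERK gene was NF1 (-0.18), and the other lower genes of receptor sorting were STAM2 (-0.26), USP8 (-0.21) and RIN1 (-0.33), all as log2 changes. In the PI3K and STAT list PIK3R3 (0.46) and AKT2 (0.21) were also higher with G1, and STAT3 (-0.11) and STAT5A (-0.68) lower. With G7 further calls were ADAM12 (-0.23), EPS8 (-0.13), CBLB (-0.38), PTPRK (-0.15) and STAM2 (-0.21) as lower, and ERRFI1 (0.18), PTPN12 (0.16), MAP2K1 (0.34) and PIK3R3 (0.22) as higher, as was TIMP2 (0.16, ended without control replicate 2, adjusted p = 0.051). ERRFI1 encodes MIG6, a direct inhibitor of the EGFR kinase, and also rose with G1, by 0.33 (adjusted p = 1.98e-06). Exons of other genes cover 17.4% of the merged exons of PIK3R3, 12.9% of LRIG1, 12.5% of LRIG2, 11.5% of MAP2K1, 11% of NRDC and 10% of TIMP2, and at most 7.37% of the other list genes for which a change is given.

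The 4 ligand genes of chromosome 4 lie within 0.5 megabases, and the tested genes around them were CXCL1, CXCL2, MTHFD2L and PARM1. CXCL1, a chemokine gene whose start is at -439.1 kilobases from that of EPGN, fell with G1 by 0.60 (adjusted p = 4.2e-05) and had a G7 difference of 0.02 (adjusted p = 0.91). PARM1, at 624.6 kilobases, had differences of -0.08 (adjusted p = 0.425) and -0.0016 (adjusted p = 0.994). The log2 differences of MTHFD2L, between CXCL2 and EPGN, were 0.04 and 0.06. Around EGFR, 5 genes within 1 megabase were tested. NIPSNAP2, a mitochondrial protein gene 932.8 kilobases away, rose with G1 by 0.50 (adjusted p = 3.81e-09) and with G7 by 0.29 (adjusted p = 3.94e-05). VOPP1, 554 kilobases away, rose with G1 by 0.42 (adjusted p = 1.02e-05), with a G7 difference of 0.11 (adjusted p = 0.239). SEC61G, on the other side of EGFR and a subunit of the protein-conducting channel, differed by 0.11 (adjusted p = 0.146) with G1 and -0.06 (adjusted p = 0.541) with G7. LANCL2 had a log2 change of 0.15 with G1 (adjusted p = 0.0278, from 0.0123 to 0.355 over the alternatives, ended with upper quartile scaling and without control replicate 1, control replicate 3, G1 replicate 1 or G1 replicate 3), and SEPT14 one of -0.62 (adjusted p = 0.0478), not recomputed under the alternatives.

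**Figure D5:**
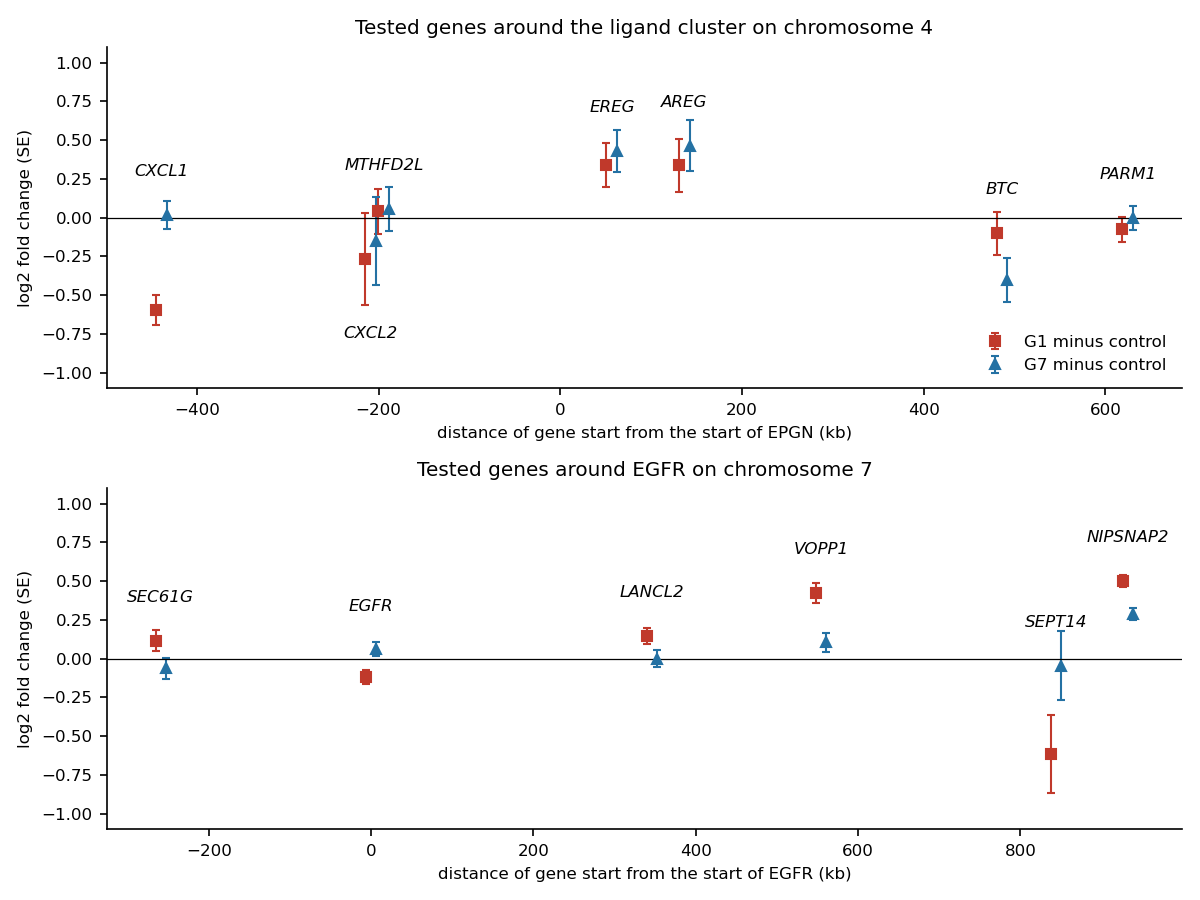
Log2 fold change with its standard error for tested genes around the ligand cluster of chromosome 4 and around EGFR on chromosome 7, against the distance of each gene start from that of EPGN or EGFR in kilobases. EPGN was not tested and is not drawn. EREG and AREG stand above 0 with both hairpins, and BTC at the far end of the cluster is at -0.40 with G7.

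Across the 9 libraries, log2 CPM of each member was compared with that of 8594 genes with a mean of at least 10 CPM. The correlations describe libraries that share group and scaling. For HBEGF the most similar were HHIPL2 (Pearson r of 0.998), ITPR1 (0.996) and ST6GAL1 (0.996), with log2 changes with G1 of -0.60, -1.55 and -0.36. For ERBB2 they were SPDEF (0.993), TMEM94 (0.992) and ALPP (0.988), for ERBB3 TM7SF2 (0.988), ITFG2 (0.986) and LENG8 (0.983), and for EGFR SEPT3 (0.986), PLD1 (0.959) and PALMD (0.950). AREG was most like ETS2 (0.946), EREG like BACE2 (0.949), TGFA like RIDA (0.967) and BTC like SLC40A1 (0.978).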

How the data were processed

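Messenger RNA of 9 HCC827 libraries, 3 per hairpin, was sequenced. The authors deposited 1 table of raw counts per Ensembl gene, without normalization. The submitters' processing notes name TopHat2 (2.1.0), HTSeq (0.6.0) and the human build hg38 or GRCh38. The annotation, strand setting and read filters are not given in sources used here. Per the labels' protocols, libraries were made from oligo-dT purified RNA with a strand-specific dUTP method. Symbols, coordinates and exon lengths came from GENCODE release 29, which held 57055 of the 60675 identifiers.

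The fit was made in R 4.3.3 with edgeR 4.0.16. The filterByExpr filter left 13264 genes, TMM gave the library scaling, and the quasi-likelihood model had 1 mean per group over all 9 libraries, with a common dispersion of 0.00217. Contrasts were tested two-sided, with Benjamini-Hochberg adjustment over all tested genes and calls at 0.05. The scripts were tested on simulated data. Alternatives were RLE or upper quartile scaling, no filter, DESeq2 1.42.0, a fit to the compared groups alone, a replicate block, no mitochondrially encoded genes, the longest transcript as gene length, and each library left out. Up to 4 tested genes per list with the smallest p against control were named, besides the members, and others were picked after their values were seen. The members and lists were chosen with earlier results of these data known. No library was left out of the reported fit. The labels give replicate numbers without saying what they share. Deviations from the group means correlated by 0.126, 0.42 and 0.568 in the 3 same-numbered pairs of G1 and G7. Differently numbered pairs of G1 and G7 gave -0.533 to 0.364, so the highest of these was above the 0.126 of replicate 1. Some genes of the lists are counted but not reported here by name.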

Additional observations from a re-analysis of the deposited data

Results flagged for a closer look

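For 4 of the 8 tested members the change against control differed between the hairpins in the direct test of G1 against G7 by edgeR. That test called 44.9% of all tested genes, 23.3% as higher and 21.6% as lower. The log2 change with G1 minus that with G7 was -1.61 for HBEGF, -0.40 for ERBB2, -0.18 for EGFR and -0.17 for ERBB3. These genes were picked by that test, and all 3 G1 libraries lay below all 3 G7 libraries for each of them. CBX5 itself had a log2 difference of -0.52 in the same test, and its part in these differences was not tested.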

How the results depend on the processing

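The calls of HBEGF, ERBB2 and EGFR in G1 minus G7, of HBEGF and ERBB2 in G1 minus control and of ERBB3 in all 3 comparisons held under the 16 alternatives, while those of EGFR in G1 minus control and of AREG, EREG and BTC did not. AREG, EREG and BTC rested on 124 to 287 counts per group. The count of members called higher in G1 minus control, 1 as reported, was 0 with upper quartile scaling, DESeq2 or the 2 compared groups alone, and 0 to 2 with 1 library left out. In G7 minus control the 2 higher members became 1 with RLE scaling, upper quartile scaling, the 2 compared groups or no mitochondrially encoded genes, 0 with DESeq2, and 0 to 1 with 1 library left out. The 2 lower members there became 1 with DESeq2 or the 2 compared groups, and 1 to 2 with 1 library left out. The cause was not tested. Of the genes of the 7 pathway lists, 41 higher in G1 minus control became 26 with upper quartile scaling, and 26 higher in G1 minus G7 became 16. That scaling moved the median of all tested genes by -0.09, -0.03 and -0.06 in the 3 comparisons and turned 4031 higher and 3806 lower calls with G1 into 3066 and 4815, 1735 and 1279 with G7 into 1398 and 1603, and 3092 and 2870 in G1 minus G7 into 2346 and 3751. The near-zero difference of ERBB2 in G7 minus control turned to -0.0012 with RLE scaling, -0.023 with upper quartile scaling, -0.0016 with the 2 compared groups and -0.0070 without mitochondrially encoded genes, and ran from -0.023 to 0.042 with 1 library left out. TGFA in G1 minus G7 turned to -0.0095 with upper quartile scaling, and BTC in G1 minus control ran from -0.21 to 0.011 with 1 library left out, positive without control replicate 2. With the longest transcript as gene length, the EGFR share of the receptor level was 65.6%, 69.6% and 67.9% in control, G1 and G7, the TGFA share of the ligand level 66.9% with G1 and 55.3% with G7, and the ratio of EGFR to ERBB2 and to ERBB3 in control 3.64 and 4.01, against 5.98 and 4.80.

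With a replicate block no call of a member or recomputed list gene changed in G1 minus G7. Same-numbered libraries of G1 and G7 correlated by 0.126 to 0.568, and differently numbered ones by -0.533 to 0.364. In the comparisons with control these ranges were -0.256 to 0.167 and -0.479 to 0.453. There the block ended the EREG call with G1 (adjusted p = 0.0576 by edgeR) and the AREG call with G7 (0.06). This left 1 higher member in G7 minus control, and TGFA passed with G1 (0.0413).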
